A study of Sus scrofa with 3 samples.

Results

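Macrophages of visceral adipose tissue were followed through 10 genes of type mRNA that encode their surface or marker proteins, out of 22826 mRNA genes with deposited values. The genes were chosen by name, with the values of LOC100520753 and EMR1 in these same libraries already known, so their levels are given as a description. All 10 genes were found among the deposited values, 9 of them above 0 in each library, and CD163 was listed at 0 in each. The samples came from retroperitoneal fat of Chinese Wuzhishan miniature pigs, all male, obtained at 6 to 7 months of age and kept for 12 weeks on an HFC diet, which is rich in fat and cholesterol. Intact males (IM) had skin incisions only. Castrated males (CM) were gonadectomized. The third group (CMT) was castrated and injected each week with testosterone propionate at 10 mg/kg body weight. All 3 groups received the HFC diet, so nothing here compares it with a standard diet.

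Each group is 1 library, made from RNA pooled over 4 pigs by the methods of the study and over 4 to 6 by the sample labels. The spread between pigs therefore cannot be estimated from these libraries, and differences between them could not be checked against replicate libraries. Levels are given in UQRPKM, the reads on a gene divided by its length and scaled by each library's upper quartile. Because this unit is per length, levels of different genes in a library can be set side by side. Whole reads could be recovered from the values, 14844063 on mRNA genes in IM, compared with 13582288 in CM and 13449107 in CMT. Each 95% interval below comes from these reads and covers counting error only, not the spread between pigs. Reads of an amplified library are not independent molecules, so an interval can be too narrow even for counting error. A gene was called higher or lower where its levels differed 1.5-fold or more and both libraries reached 1 UQRPKM. In whole tissue, more macrophages and more RNA of a gene per macrophage cannot be told apart.

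Macrophages enter fat as monocytes or live there from early on, depend on the receptor CSF1R for survival, and take up debris, lipoproteins and dying adipocytes through scavenger receptors. In obese fat they gather around dying adipocytes. CD163, which takes up haptoglobin-haemoglobin complexes, MARCO and MSR1, which are both class A scavenger receptors, and CD68, a lysosomal scavenger receptor, are used as markers of uptake. EMR1 (now ADGRE1, the F4/80 antigen of the mouse), the mannose receptor MRC1 and CSF1R mark resident macrophages. AIF1 (IBA1) is a calcium-binding protein of activated macrophages, CD14 is the co-receptor for bacterial lipopolysaccharide, and TREM2 senses lipids.

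The identity of LOC100520753 needs care. The study names it CD68. In the RefSeq gene table of the later build Sscrofa11.1, which is not the build of these values, LOC100520753 and CD68 are separate genes. CD68 lies there between EIF4A1 and MPDU1, the neighbours it also has in the human genome, whereas the nearest coding genes of LOC100520753 are DTHD1 and LOC110261944. No mRNA gene among the deposited values carried the name or gene ID that CD68 has in that table, so that gene was not analysed here. LOC100520753 is called by its deposited name below. LOC100520753 is counted among the members and scavenger receptors only by the name the study gave it. EMR1 corresponds to ADGRE1 in that table.

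LOC100520753 and EMR1 were also the members for which the study designed qRT-PCR primers. By qRT-PCR on RNA samples of the same groups, the study reported both genes as increased in CM and decreased in CMT. The oligonucleotides are shown because they define which transcripts those assays address, and the qRT-PCR values were not analysed here. They read 5′ to 3′ as follows.
LOC100520753 forward: ccaaatttcttttgtcccagtg
LOC100520753 reverse: ctccgtatgaaggggaaggta
EMR1 forward: gatggagttcgccttgtttg
EMR1 reverse: gttatggttgcggatggttc

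EMR1, MARCO and LOC100520753 were about 2-fold or more higher in the CM library than in IM and lower again in CMT, whereas CD14, CSF1R and MRC1, 3 of the 4 most abundant members, differed by less than 1.3-fold between any pair of libraries. AIF1 was higher in both castrated groups than in IM, by less than 1.5-fold. MSR1 lay at similar levels throughout, and TREM2 rested on too few reads to compare.

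Among the scavenger receptors, MARCO, which binds bacteria and particles, had 16.8 UQRPKM in IM, against 37.9 in CM and 10.7 in CMT (40, 86 and 25 reads). The CM library was the highest and CMT the lowest. The log2 ratio was 1.17 in CM versus IM (95% interval 0.62 to 1.75) and -1.82 in CMT versus CM (-2.53 to -1.17). In CMT versus IM it was -0.65, with an interval from -1.43 to 0.11 that included 0.

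LOC100520753 had 17.2 UQRPKM in IM, compared with 42.9 in CM and 22.2 in CMT (38, 90 and 48 reads). CM stood above IM by 1.31 on the log2 scale (0.75 to 1.90), the highest value among the members, and CMT versus CM gave -0.95 (-1.48 to -0.43). CMT and IM differed by 0.37 on this scale, with an interval from -0.28 to 1.02. Thus MARCO and LOC100520753 both peaked in CM, from fewer than 100 reads per library.

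MSR1, the other class A receptor, had 28.8, 33.3 and 34.7 UQRPKM in IM, CM and CMT (105, 116 and 124 reads). It did not share the peak of MARCO, and each of its 3 intervals included 0, namely -0.18 to 0.61 around a log2 ratio of 0.21 in CM versus IM, -0.32 to 0.43 around 0.06 in CMT versus CM, and -0.12 to 0.66 around 0.27 in CMT versus IM. A change smaller than these ranges was not detectable at this depth. The MARCO level was 58.5% of the MSR1 level in IM, against 114% in CM and 30.9% in CMT. This ratio within a library is free of the scaling between libraries, and it differed by 0.96 on the log2 scale between CM and IM (0.27 to 1.66) and by -1.88 between CMT and CM (-2.68 to -1.11).

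CD163 was listed at 0 in IM, CM and CMT. A listing at 0 need not be an absence of the transcript, since 6 of 66 ribosomal protein genes were also listed at 0 in all 3 libraries while the median of the others was 11386 UQRPKM in IM. No ratio can be given for CD163. CD163L1, a related gene chosen after its values were seen, had 20 reads in IM, compared with 2 in CM and 15 in CMT.

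Among the resident receptors, EMR1 showed the clearest difference. It had 45.6 UQRPKM in IM, against 93.6 in CM and 30.6 in CMT (204, 399 and 134 reads). CM was again the highest and CMT the lowest. The log2 ratio was 1.04 in CM versus IM (0.79 to 1.29), -1.61 in CMT versus CM (-1.91 to -1.33) and -0.58 in CMT versus IM (-0.90 to -0.26). The last comparison does not use the CM library, and its fold, 1.49 in favour of IM, lay just under the threshold for a call, while that of MARCO, 1.57, lay just over it. The call of MARCO was lost when libraries were scaled by total mRNA reads or by the median of ratios.

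CSF1R, the receptor for the growth factors CSF1 and IL34, had 285.3 UQRPKM in IM, compared with 245.5 in CM and 220.6 in CMT (1618, 1327 and 1226 reads). Here IM was the highest. The log2 ratio was -0.22 in CM versus IM (-0.32 to -0.11), -0.15 in CMT versus CM (-0.27 to -0.04) and -0.37 in CMT versus IM (-0.48 to -0.26). Scaled by total mRNA reads, the last ratio was -0.258, just above the upper end of its interval, -0.263.

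MRC1, which binds mannose on glycoproteins and microbes, had 108.7, 104.6 and 120.9 UQRPKM in IM, CM and CMT (770, 706 and 839 reads). CM and IM were nearly level, at a log2 ratio of -0.06 (-0.21 to 0.09) whose sign turned under another scaling, and CMT stood above CM by 0.21 (0.06 to 0.36). EMR1 therefore stood apart from both other receptors of its group. The EMR1 level was 16.0% of the CSF1R level in IM, against 38.1% in CM and 13.9% in CMT. On the log2 scale this ratio differed by 1.25 between CM and IM (0.98 to 1.53) and by -1.46 between CMT and CM (-1.77 to -1.15), but by -0.21 between CMT and IM, with an interval from -0.55 to 0.13.

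Among the activation markers, CD14 had 390.0 UQRPKM in IM, compared with 394.9 in CM and 338.8 in CMT (913, 881 and 777 reads), and was the most abundant member in each library. It was nearly level between CM and IM, with a log2 ratio of 0.02 (-0.12 to 0.15), and slightly lower in CMT than in CM (-0.22, interval -0.36 to -0.08). AIF1 had 198.0 UQRPKM in IM, against 275.2 in CM and 256.6 in CMT (293, 388 and 372 reads). IM was the lowest, and the log2 ratio was 0.47 in CM versus IM (0.25 to 0.70), 0.37 in CMT versus IM (0.15 to 0.60) and -0.10 in CMT versus CM (-0.31 to 0.11).

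AIF1 thus followed neither EMR1 nor CSF1R. Relative to CSF1R it stood at 69.4% in IM, compared with 112% in CM and 116% in CMT, and this ratio differed by 0.69 on the log2 scale between CM and IM (0.44 to 0.94). TREM2 had 7.04, 8.62 and 4.79 UQRPKM from 6, 7 and 4 reads. Its call as lower in CMT than in CM rested on 4 and 7 reads, with a log2 ratio of -0.85 and an interval from -3.07 to 1.13. These reads are the smallest whole numbers that give the deposited values, and the true reads could be a common multiple of them.

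**Figure D1:**
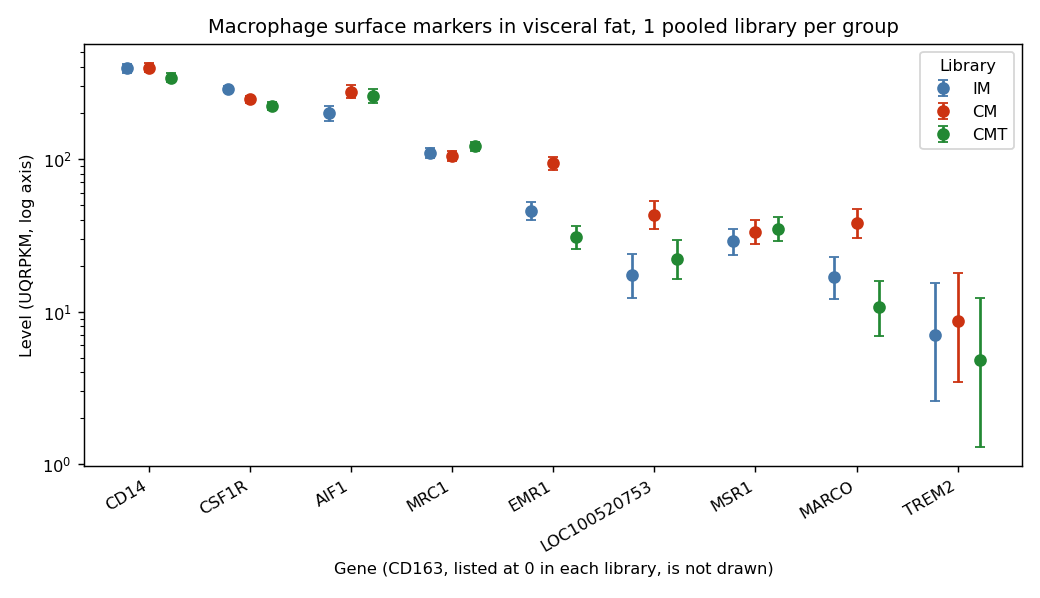
Levels of 9 members in UQRPKM on a log axis, 1 point per pooled library, with bars for the 95% Poisson interval of the reads. The CM point of EMR1, LOC100520753 and MARCO stands above the IM and CMT points, while CD14, CSF1R and MRC1 differ little between libraries.

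The order of levels was the same in CM and CMT for the 4 most abundant members, CD14, AIF1, CSF1R and MRC1. In IM, CSF1R stood above AIF1. The Poisson intervals of CSF1R and AIF1 overlapped in CM (232.5 to 259.1 and 248.5 to 304.0 UQRPKM) but not in IM, where they ran from 271.6 to 299.6 and from 176.0 to 222.1. EMR1 overlapped with MRC1 in CM, at 84.7 to 103.3 against 97.0 to 112.6 UQRPKM. In IM and CMT, EMR1 lay well below MRC1, at 42.0% and 25.3% of its level. MSR1, MARCO and LOC100520753 were of similar level in CM, between 33.3 and 42.9 UQRPKM.

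Summed over the members, the level was 1098 UQRPKM in IM, against 1237 in CM and 1040 in CMT. The scavenger receptors contributed 62.8, 114.1 and 67.6 UQRPKM to these sums, respectively. Of this, 17.2, 42.9 and 22.2 UQRPKM came from LOC100520753, whose identity as CD68 is uncertain. The resident receptors contributed 439.7, 443.8 and 372.1, and the activation markers 595.1, 678.7 and 600.1. CD14, CSF1R and AIF1 together made up most of each sum. EMR1 made up 4.16% of it in IM, compared with 7.57% in CM and 2.94% in CMT, and CSF1R 26.0%, 19.9% and 21.2%.

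**Figure D2:**
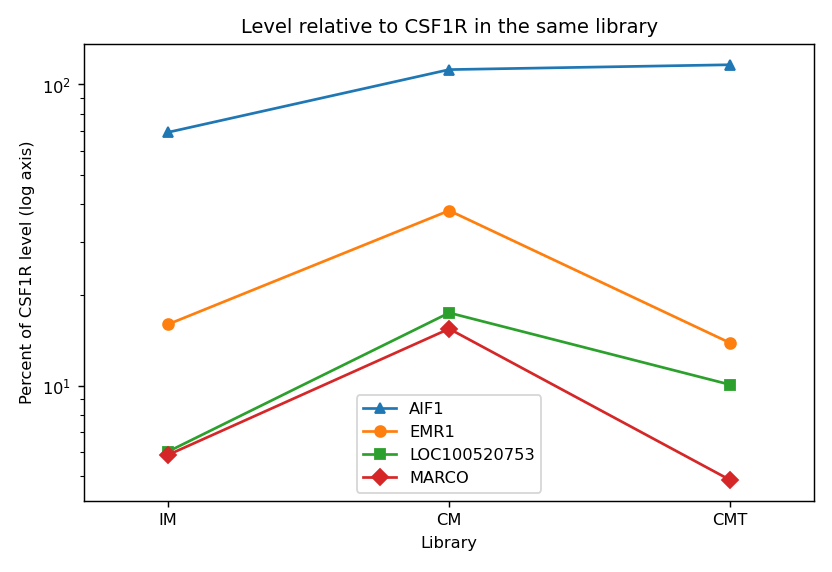
Levels of AIF1, EMR1, LOC100520753 and MARCO as a percent of the CSF1R level in the same library, on a log axis. EMR1, LOC100520753 and MARCO peak in CM, at 38.1%, 17.5% and 15.4%, whereas AIF1 stays at its higher level in CMT.

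By the call rule, 3 of the 9 members above 0 were called higher in CM than in IM (EMR1, MARCO and LOC100520753) and 0 lower. For comparison, 8.38% of all mRNA genes that reached 1 UQRPKM in CM and IM were called higher, and 10.4% lower. The median log2 ratio of the members was 0.29, against -0.06 for all mRNA genes above 0 in both libraries. In CMT versus CM, 4 members were called lower, these 3 and TREM2, and 0 higher, where 9.97% of all mRNA genes were called lower and 9.53% higher. The median of the members was -0.22, against -0.02 for all mRNA genes. In CMT versus IM, MARCO was called lower and 0 members higher, where 11.9% of all genes were called lower and 8.81% higher, and the medians were -0.20 and -0.07. The members were chosen with these contrasts known, so nothing is read from the counts.

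Among mRNA genes that reached 1 UQRPKM in all 3 libraries, 3.48% held both calls of a peak in CM, up from IM and down to CMT, as did EMR1, MARCO and LOC100520753. Both calls use the CM library, so they do not support each other.

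**Figure D3:**
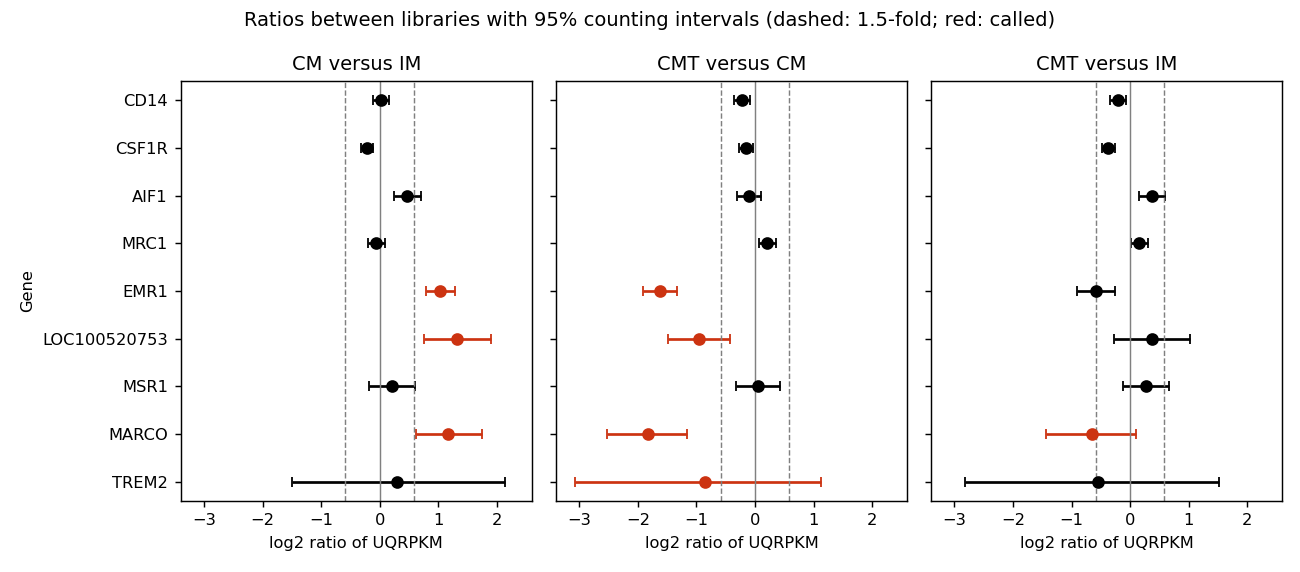
Log2 ratios of UQRPKM of 9 members in the 3 comparisons, with exact 95% counting intervals. Dashed lines mark a 1.5-fold difference and red points are called. EMR1, LOC100520753 and MARCO lie to the right in CM versus IM and to the left in CMT versus CM, and the wide bars of TREM2 reflect 4 to 7 reads.

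Genes that work with the members were followed in 8 lists of macrophage genes, of which 95 of 103 were matched by name. Of the 87 with at least 1 UQRPKM in CM and IM, 10 were called higher in CM and 10 lower. Among all mRNA genes, 8.38% were called higher and 10.4% lower. The median log2 ratio of the list genes was -0.03. In CMT versus CM, 6 were higher and 13 lower, around a median of -0.11, where 9.53% and 9.97% of all mRNA genes were called. In CMT versus IM, 4 of 86 were higher and 13 lower, where 8.81% and 11.9% of all mRNA genes were called. The median was again -0.11. Of the 86 list genes with at least 1 UQRPKM in all 3 libraries, 7 shared the CM peak of EMR1, MARCO and LOC100520753. They were CD9, APOE, VSIG4, LYZ, SYK, NCF1 and CD5L. Among all mRNA genes, 3.48% had this peak. Nothing is read from these counts or from those of single lists below.

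The ligands of CSF1R were both lower in CM than in IM without reaching the threshold. CSF1 had 253.6, 179.4 and 165.8 UQRPKM in IM, CM and CMT, and IL34 (deposited as LOC100737468) had 194.2, 149.2 and 109.7. In CM versus IM the interval of CSF1 ran from -0.85 to -0.16, while that of IL34, from -0.81 to 0.04, included 0. In CMT versus CM both intervals included 0 (-0.50 to 0.27 for CSF1 and -0.94 to 0.05 for IL34). Like CSF1R itself, both were highest in IM and lowest in CMT, and in CMT versus IM both were called lower, with log2 ratios of -0.61 and -0.82. Of the 11 measured ligands, receptors and transcription factors in that list, 0 were called higher and 1 lower in CM, the factor CEBPB, at 108.3 UQRPKM in IM and 69.7 in CM. SPI1 (PU.1), the master factor of the myeloid lineage, had 160.4, 193.8 and 150.1 UQRPKM, with a log2 ratio of 0.27 in CM versus IM. IRF8, a factor of monocyte development, was called higher in CMT than in CM, at 143.8 against 84.2 UQRPKM, and RUNX1 lower, at 10.4 against 16.2. The RUNX1 call rested on 21 and 32 reads, with an interval from -1.52 to 0.19 that included 0.

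TREM2 and the Fc receptors signal through TYROBP, FCER1G and the kinase SYK. TYROBP had 660.8, 704.2 and 610.7 UQRPKM in IM, CM and CMT, so this partner was far more abundant than TREM2. Of the 9 genes of this list with at least 1 UQRPKM in both libraries, SYK alone was called higher in CM than in IM, at 67.0 against 28.1 UQRPKM from 59 and 26 reads. It was called lower in CMT than in CM, at 35.4 UQRPKM, as was the high-affinity IgG receptor FCGR1A, at 6.27 against 11.7. The FCGR1A call rested on 16 and 29 reads, with an interval from -1.88 to 0.03 that included 0. The inhibitory receptor FCGR2B had 491.0, 361.7 and 433.5 UQRPKM, and the phosphatase INPP5D 65.1, 58.8 and 46.6.

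The partners of CD14 did not move together. TLR4, the lipopolysaccharide receptor, had 68.7, 62.8 and 52.1 UQRPKM in IM, CM and CMT, while LY96 (MD-2), its co-receptor, had 97.0, 149.7 and 175.2 and was called higher in CM than in IM. TLR6 was called lower in CM, at 10.3 against 16.3 UQRPKM. LBP, the plasma protein of the liver that hands lipopolysaccharide to CD14, had 6 reads in IM, against 79 in CM and 2 in CMT. IRAK4, a kinase downstream, had 74.5, 78.4 and 96.6 UQRPKM. In all, 2 of the 9 genes were called higher and 1 lower in CM.

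Scavenger receptors beyond the members were followed in a list of their own. Of the 10 above 0 in CM and IM, 0 were called higher in CM and 1 lower, and the median log2 ratio was -0.34. The gene called lower was LRP1, at 764.6 UQRPKM in CM against 1165 in IM. SCARA5, a ferritin receptor of class A, had 645.1, 452.1 and 788.3 UQRPKM in IM, CM and CMT and was called higher in CMT than in CM. STAB1, a receptor of resident macrophages and endothelium, had 271.2, 197.2 and 197.4, and the receptor for oxidized LDL, OLR1, 25.8, 19.9 and 24.6.

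Genes of resident macrophages also differed among themselves. CD5L, a secreted protein of tissue macrophages, had 19.7 UQRPKM in IM, compared with 46.6 in CM and 23.4 in CMT, with log2 ratios of 1.25 and -0.99 in CM versus IM and CMT versus CM. VSIG4, a complement receptor, had 154.5, 279.3 and 176.7, with ratios of 0.85 and -0.66. Both genes are also known from the Kupffer cells of the liver, as is MARCO. SIGLEC1 (deposited as SIGLEC-1) went the other way, at 30.2, 15.7 and 14.8 UQRPKM. TIMD4 (LOC100523827) was called higher in CMT than in CM, at 39.6 against 22.2. Of the 12 genes, 2 were called higher and 1 lower in CM, and the median log2 ratio was -0.21.

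In the list of lipid-associated macrophages, the state for which TREM2 is known, 2 of 12 genes were called higher and 2 lower in CM than in IM. CD9 had 204.8, 663.5 and 339.9 UQRPKM in IM, CM and CMT. APOE, which adipocytes and hepatocytes also make, had 13950, 24527 and 11363. SPP1 (osteopontin), called lower in CM, had 203.8, 100.2 and 187.3. ACP5, the other gene called lower, had 3, 1 and 8 reads. PLIN2, a lipid droplet protein, had 242.7, 173.4 and 121.5 and was called lower only in CMT versus IM.

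Among pan-myeloid genes, LYZ (lysozyme) had 41.4 UQRPKM in IM, against 97.5 in CM and 26.6 in CMT. NCF1, a subunit of the phagocyte oxidase, had 60.3, 136.2 and 63.9, and ITGAM (CD11b) 108.3, 138.4 and 73.5. MPEG1, a perforin of macrophages, had 94.6, 63.6 and 78.9. In CM versus IM, 2 of 11 were called higher and 0 lower. In CMT versus CM, 3 were called lower, LYZ, NCF1 and ITGAM.

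Cytokines of activated macrophages went in both directions. They were part of a list of activation and antigen presentation genes, whose median log2 ratio in CM versus IM was 0.14. That list also holds genes that are not cytokines, and the median is the ratio of one of them, SLA-DRA. IL1B had 26 reads in IM, compared with 6 in CM and 21 in CMT. TNF had 58.0, 30.01 and 30.4 UQRPKM, and CCL3L1, a chemokine for monocytes, 233.2, 92.4 and 106.9. All 3 were called lower in CM than in IM. The chemokine CXCL10 went the other way without reaching the threshold, at 180.8, 269.1 and 187.6 UQRPKM, and CCL2 had 189.2, 216.5 and 159.1. IL10, an anti-inflammatory cytokine, had 15.7, 18.6 and 9.28 UQRPKM and was called lower in CMT versus CM. Of the 13 genes of this list with at least 1 UQRPKM in both libraries, 1 was called higher in CM than in IM, the costimulatory protein CD86, and 4 lower, the last of them CHI3L1.

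**Figure D4:**
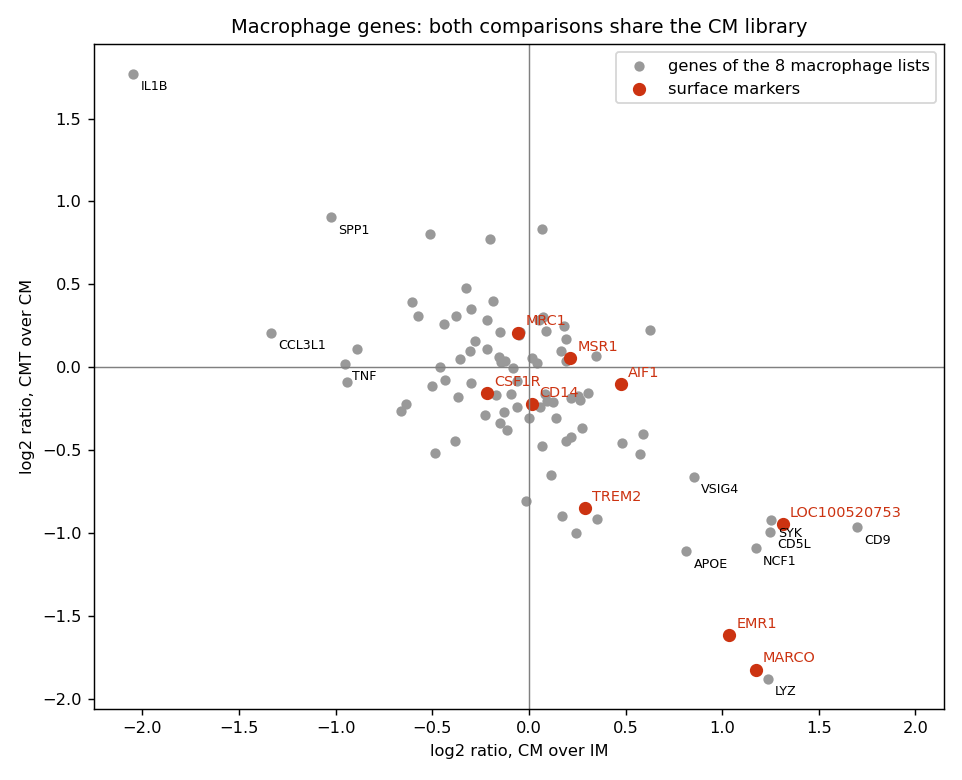
Log2 ratios of 85 genes of the macrophage lists with at least 30 reads in all (grey) and of 9 members (red), CM over IM on the horizontal axis and CMT over CM on the vertical one. LBP, at 3.79 and -5.34, lies outside the axes, and since both axes use the CM library a downward slope can arise from that alone. EMR1, MARCO and LOC100520753 lie at the lower right with LYZ, NCF1, SYK and CD5L, and the other members lie nearer the centre.

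Over all 3 libraries, the mRNA genes whose pair of log2 ratios lay nearest to that of EMR1, among 9065 genes with at least 300 reads in all, were SDR16C5, KIAA1324L and PMPCB, at distances of 0.05, 0.19 and 0.20. The nearest to MARCO were LYZ, KIAA1324L and EMR1 itself, at distances of 0.08, 0.24 and 0.25. These distances rest on 3 libraries only. MARCO stood at 36.8% of the EMR1 level in IM, against 40.5% in CM and 35.1% in CMT. The intervals of this ratio were wide on the log2 scale, from -0.48 to 0.77 between CM and IM and from -0.97 to 0.52 between CMT and CM. LOC100520753 stood at 37.8%, 45.8% and 72.7% of EMR1 in IM, CM and CMT. Its ratio to EMR1 differed by 0.67 on the log2 scale between CMT and CM (0.05 to 1.27), an interval that overlapped that of MARCO.

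Markers of other cells moved with the CM library, in which EMR1, MARCO and LOC100520753 peaked. Of 11 matched hepatocyte markers, 4 were at 0 in IM, compared with 0 in CM and 3 in CMT, and their summed level was 2570, 10500 and 1753 UQRPKM. Most of the sum in IM and CMT was APOA1, at 2539 and 1714 UQRPKM. ALB had 10 reads in IM, against 10612 in CM and 15 in CMT, APOC3 had 0, 1418 and 2, FETUIN 5, 993 and 3, and TF 19, 2696 and 31. The list held 0.0232% of the mRNA reads in IM, compared with 0.169% in CM and 0.0173% in CMT. The part of liver RNA in the levels of EMR1, MARCO, LOC100520753, CD5L and VSIG4 was not tested.

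The list of neutrophil and monocyte markers summed to 600.4 UQRPKM in IM, against 5000.1 in CM and 1083 in CMT, most of it from S100A8, S100A9 and S100A12. S100A8 had 52, 697 and 109 reads. Of the other markers of that list, CCR2, a receptor of monocytes, was called lower in CM, at 13.2 against 26.7 UQRPKM, as was MMP9, at 5.81 against 16.9. CSF3R and CD177 were listed at 0 in each library, and MPO and ELANE had at most 1 read. The part of these cells in the levels of EMR1, MARCO and LOC100520753 was not tested.

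Markers of skeletal muscle moved with the CMT library. The 10 skeletal muscle markers, of which 2 were at 0 in each library, summed to 82.3 UQRPKM in IM, compared with 68.3 in CM and 6130 in CMT. Adipocyte markers identified the tissue, with ADIPOQ at 74928, 69193 and 63873 UQRPKM, and their sum was lower in CMT, at 110075 UQRPKM against 140332 in IM and 131750 in CM. PLIN4 was called lower in CMT than in CM, at 4585 against 9349, as was LEP (leptin), whose levels of 167.0, 502.3 and 156.0 in IM, CM and CMT also peaked in CM. The part of muscle RNA or of adipocyte content in the lower levels of CSF1R and CD14 in CMT was not tested. Of the 8 mesothelial and stromal markers, 3 were called higher in CM than in IM and again in CMT than in CM (MSLN, UPK3B and KRT19) and 1 was called lower in CM than in IM (COL1A1, at 2235 against 4453 UQRPKM), with UPK3B at 4.93, 27.4 and 46.4 UQRPKM in IM, CM and CMT.

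Lymphocyte, mast cell and endothelial markers held 0 genes called higher in CM than in IM. Among all mRNA genes, 8.38% were called higher and 10.4% lower, and nothing is read from the counts of these short lists. The 12 T and NK cell markers summed to 894.3, 774.4 and 792.1 UQRPKM in IM, CM and CMT, with 0 called higher and 2 lower in CM than in IM, GZMH and LCK. The 7 B cell markers summed to 105.1, 81.1 and 84.1, the 5 matched mast cell markers to 236.8, 218.6 and 268.5, and the 6 matched endothelial markers to 8787, 7821 and 8501. Of those with at least 1 UQRPKM in CM and IM, 2 of 6 B cell markers (CD79B and BLK) were called lower in CM. So was 1 of 4 mast cell markers (HDC), and 0 of 6 endothelial markers were.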

How the data were processed

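Pooled RNA of each group gave 1 single-end Ion Proton library. After filtering, the authors aligned reads to Sscrofa10.2 (MapSplice), and they deposited RPKM values scaled by the upper quartile (UQRPKM). The counting tool and annotation are not given in the sources used here. The deposited values hold 34570 genes.

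Reads were recovered as whole multiples, at the shortest gene length up to 120000 bases that fitted all 3 libraries, so reads with a common factor can be too low. Such a length was found for 20838 of 20838 genes above 0 (largest relative error 7.65e-09), which does not show that the reads are the true ones. The recovery was tested on data simulated from mRNA genes with at least 30 reads over the 3 libraries, so genes with fewer reads, such as TREM2, were not covered. The upper quartiles were 149, 142 and 146 for IM, CM and CMT. Log2 ratios are of UQRPKM without a pseudocount. Intervals are exact Clopper-Pearson intervals for ratios, conditional exact intervals for pairs of genes and Poisson intervals for levels (scipy 1.17.1). Calls use the fold and minimum level of the study without its test, the minimum being required in both libraries compared. An exact binomial test on the reads, adjusted over all mRNA genes by Benjamini-Hochberg, was tried only as an alternative call rule. It compares libraries, and it gives no support to members chosen with their values known.

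Members and lists were chosen with earlier results of these data known. Named list genes are, per list, up to 4 with the largest absolute log2 ratio in CM versus IM or CMT versus CM among those with at least 30 reads, plus direct partners of the members (CSF1, IL34, TYROBP, TLR4, LY96, SPI1). Further genes were named after their values were seen, where a count or a marker list turned on them. Symbols were matched directly or through RefSeq gene IDs. For EMR1 and MARCO the 3 genes nearest in both log2 ratios are named, and CD163, at 0, has none. A search of promoters for a PU.1 motif was not run.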

Additional observations from a re-analysis of the deposited data

How the results depend on the processing

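Alternatives were another scaling (total mRNA reads or median of ratios), a pseudocount of 1, a fold of 2, other filters on low values and the added exact test. They left 37 of 42 counts of members called within 1.5 times. The exceptions were the members called lower in CMT versus CM, 2 at a fold of 2 (EMR1 and MARCO), and in CMT versus IM, 0 in place of 1 under both other scalings, the fold of 2 and the exact test. Total reads moved the median of all mRNA genes by 0.11 in CMT versus IM and put the members' median there at -0.0903, and the cause of these differences was not tested. MRC1 in CM versus IM ranged from -0.06 to 0.01, and no other log2 ratio of a member changed sign under another scaling or the pseudocount. The log2 ratio of CSF1R in CMT versus IM alone left its counting interval, at -0.258 with total reads against an upper end of -0.263. Members' shares of their sum depend on length: in reads in place of UQRPKM, 23 values moved by more than counting error and 8 did not. The 8 include CD163, at 0 in each library, and the change of the CSF1R share from IM to CM, which is not a single share. In reads, CSF1R made up 40.6%, 33.2% and 34.5% in IM, CM and CMT. TREM2, MARCO and LOC100520753 are limited by depth. No paired analysis was possible because each group is 1 pooled library with no replicate numbers in the labels.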
